A study of Mus musculus with 16 samples.

Results

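The genes examined are 44 genes of DNA replication and S phase, the stretch of the cell cycle in which a cell copies its DNA. They were chosen by name, 45 in all, and matched by symbol to the array's annotation. Each gene was read from the probe set with the highest mean over the 16 arrays among those annotated with that gene alone. Chaf1a, the large subunit of the CAF-1 histone chaperone, had no such probe set, so 44 of the 18193 genes represented on the array were measured. The value of a probe set is a deposited log2 intensity, so a difference of 1 is a 2-fold difference.

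The arrays held RNA of the whole left lung of 16 Balb/c mice aged 23 weeks, 4 mice in each of 4 groups. Air females and air males had been exposed before birth to filtered air. SHS females and SHS males had been exposed before birth to sidestream cigarette smoke, used in place of second-hand smoke (SHS), at 10 mg/m3 of suspended particles, 5 h each day and 7 days a week. As adults all 16 mice, controls included, were injected with the egg protein ovalbumin (OVA) at 19 and 21 weeks and challenged with it as an aerosol in weeks 22 and 23. The comparisons therefore all lie between lungs given an allergen, which limits the air groups as controls. Replicates are labelled as biological, and the mothers and litters are not given in the sources used here. SHS females were compared with air females and SHS males with air males, and levels were not compared between the sexes.

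A cell first licenses its origins of replication: the origin recognition complex (ORC) with Cdc6 and Cdt1 loads the ring-shaped MCM2-7 helicase on DNA in G1. At the start of S phase Cdc45 and the GINS complex join MCM2-7 to form the active helicase, primase and polymerase alpha lay down primers, and polymerases delta and epsilon extend them behind the sliding clamp PCNA. Many of these genes are transcribed together at the G1/S boundary under the E2F transcription factors. In the resting adult lung few cells replicate, while in allergic airway inflammation leukocytes, epithelium and other cells can divide.

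The promoters of 4 of these genes are shown, chosen by the size of the difference on the probe set used. Of the genes with a promoter sequence, Rrm2, Cdc6 and Hells had the largest mean of both sexes' differences after SHS, and Orc1 the smallest. Each line is the 250 bases before the start that RefSeq's promoter table (mouse assembly GRCm38.p6) uses for the gene, on the plus strand, with E2F-type letters and CCAAT letters, or their reverse complements, in capitals. The regions are chr12:24708004-24708253 for Rrm2, chr11:98907901-98908150 for Cdc6, chr19:38930740-38930989 for Hells and chr4:108579204-108579453 for Orc1. For Cdc6, Hells and Orc1 the gene's full RefSeq span begins upstream of the region shown, at 98907709, 38930262 and 108575705, so the table's start is not the outermost one, while the span of Rrm2 begins at 24708254, the base after its region.
Rrm2: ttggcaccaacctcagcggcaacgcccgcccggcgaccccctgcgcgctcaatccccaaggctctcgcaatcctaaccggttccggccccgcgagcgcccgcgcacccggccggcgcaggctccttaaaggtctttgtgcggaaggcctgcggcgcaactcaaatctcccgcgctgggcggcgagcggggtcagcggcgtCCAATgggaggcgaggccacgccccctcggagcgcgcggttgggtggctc
Cdc6: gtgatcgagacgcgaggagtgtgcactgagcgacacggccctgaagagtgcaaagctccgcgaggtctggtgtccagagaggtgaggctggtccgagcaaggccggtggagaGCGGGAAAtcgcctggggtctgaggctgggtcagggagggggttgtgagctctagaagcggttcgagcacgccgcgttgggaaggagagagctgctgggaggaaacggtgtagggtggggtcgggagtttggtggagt
Hells: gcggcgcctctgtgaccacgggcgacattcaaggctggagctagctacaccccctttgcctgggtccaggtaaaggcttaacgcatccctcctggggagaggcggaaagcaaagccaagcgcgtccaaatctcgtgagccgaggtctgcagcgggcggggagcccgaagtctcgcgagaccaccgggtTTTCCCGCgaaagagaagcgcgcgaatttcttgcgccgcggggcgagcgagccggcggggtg
Orc1: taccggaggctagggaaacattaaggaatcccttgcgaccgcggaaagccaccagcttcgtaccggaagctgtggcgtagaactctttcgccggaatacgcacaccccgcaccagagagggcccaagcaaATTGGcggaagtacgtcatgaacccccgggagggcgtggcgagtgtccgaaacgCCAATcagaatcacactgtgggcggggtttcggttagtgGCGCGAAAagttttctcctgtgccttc
The letters GCGGGAAA in Cdc6 and TTTCCCGC in Hells are the same E2F-type word on opposite strands. Rrm2 held CCAAT, the letters that the factor NF-Y is known to bind, and no E2F-type word. Orc1 held the E2F-type word GCGCGAAA as well as CCAAT on both strands.

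After SHS in utero 33 of the 44 genes were higher in females and 27 were higher in males, and none was lower in either sex. A gene is called here at an adjusted p under 0.05 (limma, two-sided, Benjamini-Hochberg adjustment over 45037 probe sets), and "rose" is used of called genes alone. Over all probe sets 2.36% were called higher and 0.517% lower in females, and 3.07% higher and 2.11% lower in males. Of the 18193 genes, each read from its probe set of highest mean, 599 (3.29%) were called higher and 123 lower in females. In males 758 (4.17%) were called higher and 449 lower. The median difference over the 44 genes was 0.48 in females, with a range of 0.04 to 1.43, and 0.41 in males, with a range of 0.08 to 1.33. Over all 18193 genes the medians were 0.00 and 0.01. All 44 differences lay above 0 in both sexes, against 50.1% of all genes in females and 52.4% in males. In bulk lung RNA a larger number of replicating cells and more RNA per cell cannot be told apart.

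Most rises were under 2-fold, and 3 genes in females and 2 in males reached 2-fold. The 4 SHS arrays lay above all 4 air arrays for 35 genes in females and 32 in males. Such separation in the upward direction was seen for 5.61% of all probe sets in females and 7.87% in males. In 41 of 44 genes in each sex every SHS array lay above the mean of the air arrays. The share of all probe sets that meet this looser criterion was not counted. Spread within a group was of the order of the smaller differences, with a median SD over the 44 genes of 0.10 in air females, 0.18 in SHS females, 0.12 in air males and 0.10 in SHS males (n = 4 each).

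**Figure D1:**
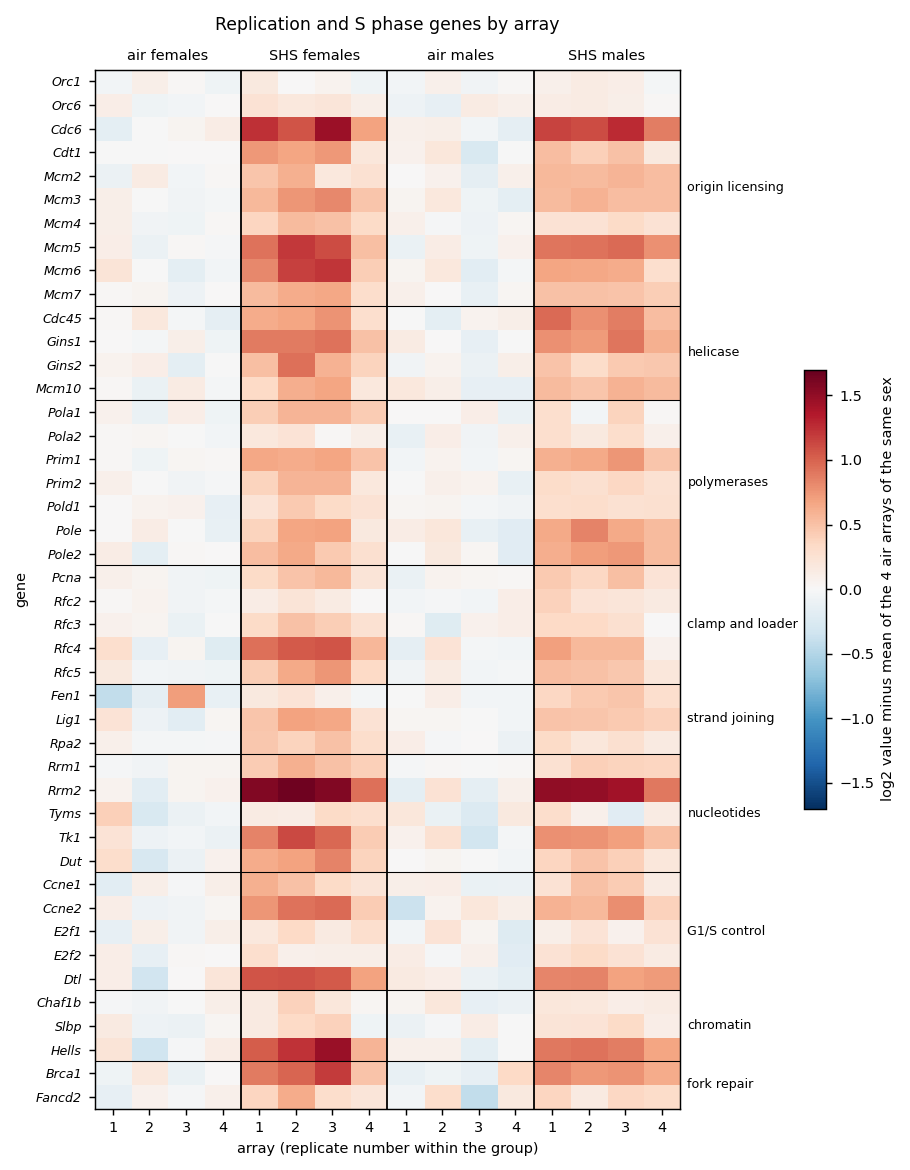
Heat map of the 44 genes (rows, ordered by role) on the 16 arrays (columns, by group and replicate number), coloured by the log2 value minus the mean of the 4 air arrays of the same sex. SHS columns are red for most genes in both sexes, with Rrm2 and Cdc6 the darkest, and replicate 4 is the palest SHS column of each sex.

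The same 26 genes were called in both sexes. A further 7, namely Cdt1, Pola1, Rfc3, Rfc4, Rpa2, Dut and Ccne1, were called in females only by this threshold, and Rfc2 in males only. The other 10 were called in neither sex. The single-sex calls depended in part on the probe set used. Another probe set was called in both sexes for Cdt1, Rfc4 and Rpa2. For Rfc3 and Ccne1 another was called in males only, and for Rfc2 another in females only. A call in a single sex does not show a difference between the sexes: the difference of the SHS effect, females minus males, was called for 0 of the 44 genes and for 0.0% of the 45037 probe sets (limma). At an unadjusted p under 0.05 that difference held 3709 of all probe sets and 2 of the 44 genes, Pola1 at 0.34 ± 0.13 (unadjusted p = 0.0177, adjusted p = 0.537) and Rfc4 at 0.44 ± 0.20 (unadjusted p = 0.0449, adjusted p = 0.6). The effect was larger in females for 32 of 44 genes, by a median of 0.08, and the differences of effect ran from -0.28 to 0.44. For 37 genes it was within 0.2 of zero.

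**Figure D2:**
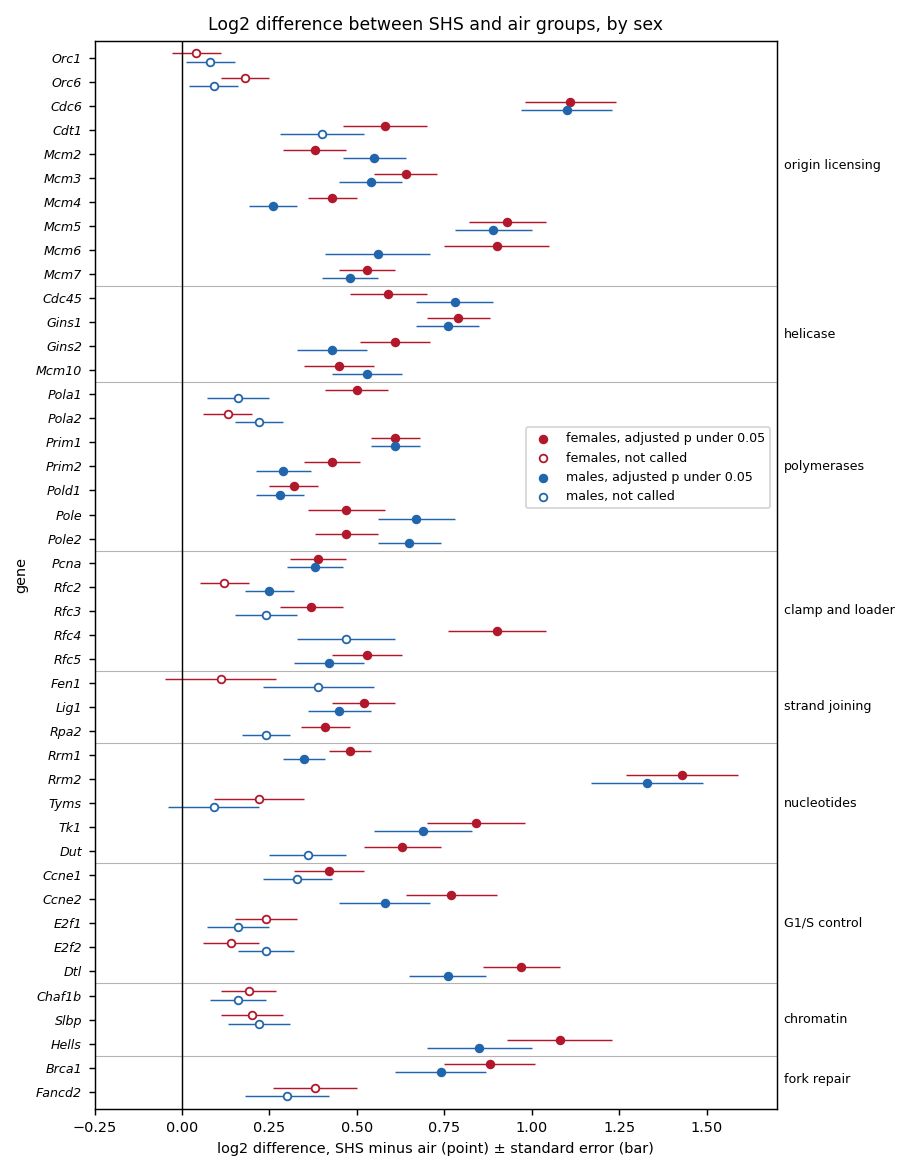
Log2 difference, SHS minus air (x axis), of each of the 44 genes (y axis, ordered by role) in females (red) and males (blue), with the model's standard error as the bar and filled points for adjusted p under 0.05. Every point lies right of 0, and Orc1 has the leftmost pair.

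Of the 10 genes that license origins, 8 rose in females and 7 in males. The largest rise in both sexes was that of Cdc6, the ATPase that recruits the helicase to ORC. Cdc6 read 6.13, 6.30, 6.35 and 6.43 in air females against 7.55, 7.37, 7.76 and 6.98 in SHS females. Males gave Cdc6 values of 6.49, 6.50, 6.35 and 6.25 after air and 7.55, 7.51, 7.66 and 7.27 after SHS. Every SHS array was above every air array of its sex, and replicate 4 was the lowest SHS array in both. These values amount to 2.16-fold in females (1.11 ± 0.13, SE, adjusted p = 0.000259 in limma) and 2.14-fold in males (1.10 ± 0.13, adjusted p = 0.000224).

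All 6 subunits of the MCM2-7 ring rose in both sexes. Mcm5 showed the largest of these differences, 0.93 ± 0.11 in females and 0.89 ± 0.11 in males. Mcm6 rose by 0.90 ± 0.15 and 0.56 ± 0.15, Mcm3 by 0.64 and 0.54, and Mcm7 by 0.53 and 0.48. On the probe sets used, the smallest rises in the ring were 0.38 for Mcm2 in females and 0.26 for Mcm4 in males (adjusted p = 0.0243 and 0.0314). The other Mcm2 probe set rose by 0.69 in females and 0.57 in males. Cdt1, the loader of the ring, rose by 0.58 ± 0.12 in females and differed by 0.40 ± 0.12 in males (adjusted p = 0.0594). A dimmer Cdt1 probe set rose in both sexes, by 0.54 and 0.50, and the dimmest was not called.

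The ORC subunits did not pass the test. Orc1, the subunit whose level follows the cell cycle, read 6.73, 6.88, 6.80 and 6.70 in air females and 6.94, 6.78, 6.84 and 6.71 in SHS females. Its male values were 6.85, 6.98, 6.83 and 6.91 after air and 6.98, 7.03, 7.01 and 6.86 after SHS. The groups overlapped in both sexes, with differences of 0.04 ± 0.07 and 0.08 ± 0.07. A dimmer Orc1 probe set was higher after SHS by 0.70 ± 0.14 in females and 0.58 ± 0.14 in males (adjusted p = 0.00797 and 0.0193, limma), so the 2 probe sets of this gene disagree. Orc6 read 7.84, 7.66, 7.69 and 7.73 in air females and 7.97, 7.91, 7.93 and 7.83 in SHS females. In males Orc6 stood at 8.02, 7.96, 8.25 and 8.19 after air and 8.23, 8.25, 8.20 and 8.13 after SHS. Male groups overlapped, as did female groups by SHS replicate 4 against air replicate 1, with differences of 0.18 ± 0.07 and 0.09 ± 0.07 (adjusted p = 0.203 and 0.5).

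All 4 genes that turn the loaded ring into a working helicase rose in both sexes, with a median of 0.60 in females and 0.64 in males. Gins1, a subunit of GINS, was the leading one in females. Gins1 read 5.92, 5.88, 6.01 and 5.84 in air females and 6.79, 6.80, 6.83 and 6.41 in SHS females. It stood at 6.44, 6.30, 6.15 and 6.29 in air males and at 7.07, 7.02, 7.20 and 6.90 in SHS males. The groups did not overlap, and the rises were 0.79 ± 0.09 and 0.76 ± 0.09 (adjusted p = 0.000272 and 0.000329, limma). Cdc45, the subunit that completes the helicase, led in males. Cdc45 values were 7.04, 7.20, 6.99 and 6.87 in air females and 7.66, 7.70, 7.79 and 7.31 in SHS females. Air males read 6.84, 6.68, 6.91 and 6.95 for Cdc45, and SHS males 7.81, 7.62, 7.72 and 7.37. Its SHS arrays all exceeded the air arrays, by 0.59 ± 0.11 in females and 0.78 ± 0.11 in males (adjusted p = 0.00679 and 0.000711). A slightly dimmer Cdc45 probe set was not called, at 0.06 ± 0.10 and 0.07 ± 0.10 (adjusted p = 0.845 and 0.767, limma), so its probe sets disagree. Gins2 rose by 0.61 and 0.43, and Mcm10, which helps start the helicase, by 0.45 and 0.53. With the mean of all its probe sets Mcm10 was called in neither sex, at 0.26 and 0.15.

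Of the 7 polymerase and primase subunits, 6 rose in females and 5 in males. Prim1, the catalytic subunit of primase that begins each new strand, had nearly the same rise in both sexes on the probe set used. Its other probe set rose by 0.48 in females and differed by 0.27 in males (adjusted p = 0.182, limma). Prim1 read 8.09, 7.99, 8.10 and 8.09 in air females and 8.73, 8.70, 8.74 and 8.55 in SHS females. Male readings were 8.13, 8.23, 8.12 and 8.20 after air and 8.77, 8.81, 8.92 and 8.64 after SHS. No air array reached an SHS array, and the difference was 0.61 ± 0.07 in each sex (adjusted p = 0.000233 in females and 0.00017 in males, limma). Pole, the catalytic subunit of polymerase epsilon on the leading strand, led in males. Pole values were 6.53, 6.65, 6.51 and 6.40 in air females and 6.90, 7.19, 7.20 and 6.69 in SHS females. Air males showed 6.58, 6.65, 6.34 and 6.27, and SHS males 7.11, 7.30, 7.11 and 7.00. Separation was complete in both sexes, and Pole rose by 0.47 ± 0.11 and 0.67 ± 0.11 (adjusted p = 0.0305 and 0.00259). Its partner Pole2 rose by 0.47 and 0.65, and Pold1, the catalytic subunit of polymerase delta, by 0.32 and 0.28.

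Polymerase alpha works in a complex with primase. Pola1, the catalytic subunit, rose in females by 0.50 ± 0.09 and differed by 0.16 ± 0.09 in males (adjusted p = 0.357). With the mean of its probe sets the female difference of Pola1 was 0.25 and was not called (adjusted p = 0.158, limma). Pola2, the regulatory subunit, read 9.04, 9.05, 9.01 and 8.98 in air females and 9.20, 9.25, 9.04 and 9.12 in SHS females. For males the Pola2 values were 8.69, 8.93, 8.76 and 8.90 after air and 9.11, 8.99, 9.12 and 8.91 after SHS. The groups overlapped in both sexes, at differences of 0.13 ± 0.07 and 0.22 ± 0.07 (adjusted p = 0.412 and 0.101). Prim2 rose by 0.43 in females and 0.29 in males, the latter at an adjusted p of 0.0499.

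Pcna, the sliding clamp, rose by 0.39 ± 0.08 in females and 0.38 ± 0.08 in males, a 1.31-fold rise in each. Its loader is replication factor C, of which 3 of the 4 small subunits measured rose in females (Rfc3, Rfc4 and Rfc5) and 2 in males (Rfc2 and Rfc5). Rfc4 differed most. Rfc4 read 7.66, 7.23, 7.42 and 7.17 in air females and 8.30, 8.41, 8.44 and 7.93 in SHS females. In males it was 7.47, 7.86, 7.59 and 7.57 after air and 8.32, 8.18, 8.17 and 7.69 after SHS. Female groups were separate, a rise of 0.90 ± 0.14 (adjusted p = 0.00185), while in males SHS replicate 4 lay below air replicate 2 and the difference of 0.47 ± 0.14 missed the threshold (adjusted p = 0.0656). A further Rfc4 probe set rose in both sexes, by 0.89 ± 0.09 and 0.75 ± 0.09. Rfc5 rose by 0.53 and 0.42, Rfc3 differed by 0.37 and 0.24, and Rfc2 by 0.12 and 0.25. The other Rfc3 probe set was called in males only (0.28 and 0.36), and a dimmer Rfc2 probe set in females only (0.26 and 0.12).

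Lig1, the ligase that joins Okazaki fragments, rose in both sexes. Lig1 read 8.50, 8.19, 8.09 and 8.31 in air females and 8.74, 8.95, 8.93 and 8.52 in SHS females. Males had 8.38, 8.39, 8.34 and 8.30 after air and 8.84, 8.83, 8.80 and 8.74 after SHS. The air male arrays lay within 0.09 of each other and well below the SHS arrays, and the rises were 0.52 ± 0.09 in females and 0.45 ± 0.09 in males (adjusted p = 0.00592 and 0.0104, limma). Rpa2, a subunit of the protein that coats single-stranded DNA, rose by 0.41 in females and differed by 0.24 in males (adjusted p = 0.0533). The other Rpa2 probe set rose in both sexes, by 0.39 and 0.50.

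Fen1, the nuclease that trims Okazaki fragments, gave probe sets that disagree. The brighter one read 10.19, 10.46, 11.32 and 10.48 in air females and 10.78, 10.84, 10.70 and 10.58 in SHS females. Its male values were 10.10, 10.23, 10.06 and 10.06 after air and 10.46, 10.56, 10.59 and 10.40 after SHS. Air female replicate 3 was the highest of all these arrays, the male groups did not overlap, and the differences were 0.11 ± 0.16 and 0.39 ± 0.16 (adjusted p = 0.801 and 0.174, limma). Without air female replicate 3 the male difference of Fen1 was called at an adjusted p of 0.0124, since all 4 groups share the estimate of the spread. The other Fen1 probe set rose by 0.87 ± 0.12 in females and 0.77 ± 0.12 in males (adjusted p = 0.000656 and 0.00137).

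Rrm2, the subunit of ribonucleotide reductase that is made in S phase and limits the supply of deoxynucleotides, had the largest rise of the 44 genes in both sexes. Rrm2 read 8.52, 8.28, 8.51 and 8.53 in air females and 10.03, 10.12, 10.03 and 9.40 in SHS females. Air males read 8.57, 8.98, 8.58 and 8.82 for it, and SHS males 10.25, 10.23, 10.17 and 9.63. In both sexes 3 SHS arrays lay close together and replicate 4 lay below them, still above every air array. The rise was 2.70-fold in females (1.43 ± 0.16, adjusted p = 0.000215, limma) and 2.52-fold in males (1.33 ± 0.16, adjusted p = 0.000189). All 3 probe sets of Rrm2 rose, by 1.43 to 1.46 in females and 1.29 to 1.33 in males.

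Its partner subunit Rrm1, which is more stable through the cycle, rose by 0.48 ± 0.06 and 0.35 ± 0.06. Tk1, the thymidine kinase of S phase, rose by 0.84 ± 0.14 and 0.69 ± 0.14. Dut, which keeps uracil out of DNA, rose by 0.63 ± 0.11 in females and differed by 0.36 ± 0.11 in males (adjusted p = 0.066). Tyms, thymidylate synthase, read 5.68, 5.02, 5.18 and 5.23 in air females and 5.42, 5.40, 5.60 and 5.56 in SHS females. For Tyms in males the values were 5.30, 4.99, 4.87 and 5.27 after air and 5.41, 5.20, 4.92 and 5.25 after SHS. The groups overlapped, with differences of 0.22 ± 0.13 and 0.09 ± 0.13. None of the 4 Tyms probe sets was called, and their means over the arrays, 3.99 to 5.27, all lay below the median of all probe sets, 7.02.

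Dtl, the adaptor of the ubiquitin ligase that removes Cdt1 in S phase, rose most among the 5 regulators of the G1/S boundary. Dtl read 6.24, 5.81, 6.14 and 6.34 in air females and 7.20, 7.22, 7.18 and 6.82 in SHS females. Its values were 6.75, 6.72, 6.50 and 6.44 in air males and 7.43, 7.44, 7.28 and 7.32 in SHS males. No groups overlapped, and the rises were 1.96-fold in females (0.97 ± 0.11, adjusted p = 0.000233, limma) and 1.70-fold in males (0.76 ± 0.11, adjusted p = 0.000903). Cyclin E, which drives entry into S phase with Cdk2, rose for the gene Ccne2 in both sexes, by 0.77 ± 0.13 and 0.58 ± 0.13. Ccne1 rose by 0.42 ± 0.10 in females and differed by 0.33 ± 0.10 in males (adjusted p = 0.0647). The other Ccne1 probe set differed by 0.33 in females and rose by 0.41 in males.

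The activating E2F genes themselves were not called. E2f1 read 7.31, 7.56, 7.39 and 7.56 in air females and 7.64, 7.79, 7.61 and 7.74 in SHS females. Its male values ran 7.51, 7.79, 7.61 and 7.34 after air and 7.66, 7.79, 7.64 and 7.81 after SHS. Females did not overlap while males did, and the differences were 0.24 ± 0.09 and 0.16 ± 0.09 (adjusted p = 0.182 and 0.329). E2f2 read 8.15, 7.89, 8.06 and 8.04 in air females and 8.32, 8.12, 8.13 and 8.14 in SHS females. Male arrays gave E2f2 values of 8.05, 7.91, 8.02 and 7.74 after air and 8.18, 8.26, 8.17 and 8.07 after SHS. Here females overlapped and males did not, at 0.14 ± 0.08 and 0.24 ± 0.08 (adjusted p = 0.429 and 0.0906).

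Among the 3 measured genes of chromatin on new DNA, Hells, a chromatin remodeller needed for DNA methylation, rose in both sexes. Hells read 7.29, 6.73, 7.05 and 7.20 in air females and 8.10, 8.30, 8.54 and 7.65 in SHS females. Males gave 7.77, 7.77, 7.52 and 7.68 after air and 8.58, 8.61, 8.56 and 8.36 after SHS. With no overlap between groups it rose 2.11-fold in females (1.08 ± 0.15, adjusted p = 0.00064, limma) and 1.80-fold in males (0.85 ± 0.15, adjusted p = 0.00317). The other Hells probe sets were not called, with differences of 0.19 and 0.22 in females and 0.27 and 0.18 in males.

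Chaf1b and Slbp, which serve histone supply and deposition, passed the test in neither sex. Chaf1b, a CAF-1 subunit, read 6.95, 6.91, 6.96 and 7.07 in air females and 7.12, 7.37, 7.16 and 7.00 in SHS females. In males it stood at 6.68, 6.83, 6.49 and 6.53 after air and 6.82, 6.81, 6.75 and 6.77 after SHS. Both sexes overlapped, with differences of 0.19 ± 0.08 and 0.16 ± 0.08. Slbp, which binds the stem-loop of histone mRNAs, read 10.39, 10.15, 10.13 and 10.27 in air females and 10.39, 10.58, 10.63 and 10.16 in SHS females. For males the readings of Slbp were 10.45, 10.53, 10.67 and 10.54 after air and 10.76, 10.78, 10.87 and 10.66 after SHS. Groups again overlapped, at 0.20 ± 0.09 and 0.22 ± 0.09, and without SHS female replicate 4 Slbp was called in females (0.30, adjusted p = 0.0416).

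Brca1, which protects stalled forks and repairs breaks, rose in both sexes. Brca1 read 6.21, 6.46, 6.16 and 6.28 in air females and 7.16, 7.27, 7.46 and 6.76 in SHS females. Its values in males were 6.61, 6.67, 6.60 and 7.07 after air and 7.57, 7.47, 7.50 and 7.37 after SHS. Air male replicate 4 stood above its group but below all SHS arrays, and the rises were 0.88 ± 0.13 and 0.74 ± 0.13 (adjusted p = 0.00104 and 0.00287, limma). Of the other 3 Brca1 probe sets 2 rose in females, by 0.67 and 0.99, and none was called in males. The remaining one, nearly as bright as the one used (means of 6.85 and 6.91), differed by -0.10 in females and 0.08 in males. Fancd2, the Fanconi anaemia protein that marks damaged forks, read 6.17, 6.38, 6.29 and 6.39 in air females and 6.67, 6.94, 6.61 and 6.51 in SHS females. Air males had 6.27, 6.62, 5.91 and 6.49 for Fancd2, and SHS males 6.69, 6.48, 6.68 and 6.63. Females separated and males overlapped, with differences of 0.38 ± 0.12 and 0.30 ± 0.12 (adjusted p = 0.116 and 0.183), and without air male replicate 3, whose omission lowers the shared spread, the female difference was called (adjusted p = 0.0462).

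Several probe sets were available for 36 of the 44 genes, 107 in all. In females 61 of these were called higher and in males 49, none lower. Among the 63 probe sets not used above, the calls in females numbered 20 of 25 with a mean over the arrays above 7.02 and 8 of 38 below it, and in males 17 of 25 and 5 of 38. At least 1 probe set was called for 36 genes in females and 34 in males. The probe sets used for 5 genes (Mcm5, Pold1, Fen1, Rrm2 and Ccne1) end in _x_at, a suffix that marks probes shared with other sequences. For 4 of these 5 genes in each sex a probe set of another kind was called. The _x_at probe set itself was called in neither sex for Fen1 and in females only for Ccne1.

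**Figure D3:**
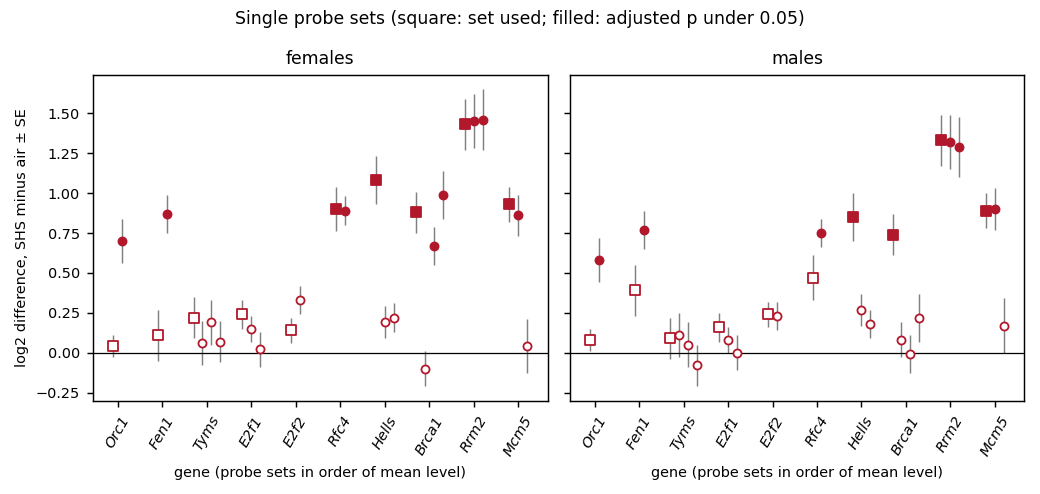
Log2 difference, SHS minus air, with its standard error for each probe set of 10 genes in females (left) and males (right), with squares for the probe set used and filled symbols for adjusted p under 0.05. The 3 Rrm2 probe sets lie together, those of Orc1, Fen1, Hells and Brca1 lie apart, and the 4 of Tyms are open.

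The promoter letters were searched on both strands of the windows from 250 bases before to 50 after the starts in RefSeq's promoter table, which held 37 of the 45 genes. The E2F-type words were TTTCCCGC, TTTGGCGC, TTTCGCGC and TTTGCCGC, and none of the motifs searched contains another. They occurred in 15 of the 37 genes (40.5%), against 3.81% of 14452 genes with a probe set and 2.60% of all 27025 genes with a window. CCAAT was found in 21 (56.8%), against 42.0% of genes with a probe set. The letters of the cell cycle homology region (CHR), TTTGAA or TTCGAA, known from promoters of mitosis genes, were in 6 (16.2%), against 17.5%. In the related lists E2F-type words were in 37.5% of genes of G1 control, 26.7% of further fork protection and repair genes, 25.0% of chromatin copying genes, 23.3% of other replication genes and 16.7% of CDK inhibitors. A list of mitosis genes had them in 1 of 21 (4.76%), CHR letters in 17 (81.0%) and CCAAT in 18 (85.7%). The windows had a median of 60.2% G and C in the replication genes, 58.0% in the mitosis genes and 58.7% in genes with a probe set.

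The size of the rise did not split cleanly by these letters. The 15 genes with an E2F-type word had a median difference of 0.53 in females and 0.48 in males, with 13 and 10 called. The 21 measured genes whose windows lacked these letters had medians of 0.42 and 0.38, with 14 and 10 called. Both ranges were wide, and the extremes crossed on the probe sets used: Rrm2 lay in the second set at 1.43 and 1.33, and Orc1 in the first at 0.04 and 0.08. The place of Orc1 depends on the probe set, since its dimmer one was higher by 0.70 and 0.58. Likewise Fen1 entered the second set at 0.11 and 0.39, while its other probe set rose by 0.87 and 0.77.

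**Figure D4:**
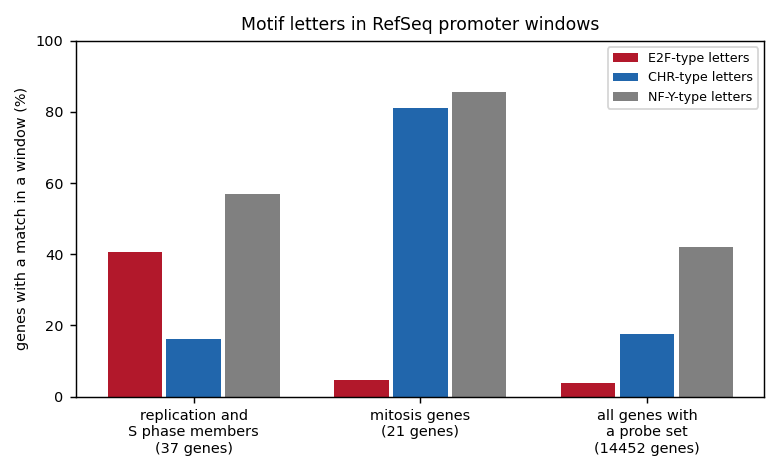
Percentage of genes with a match to E2F-type, CHR-type or NF-Y-type letters in a RefSeq promoter window, for the replication and S phase genes, the mitosis genes and all genes with a probe set. E2F-type letters stand at 40.5% in the first set and 4.76% in the second, and CHR-type letters at 16.2% and 81.0%.

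Further genes of the pathway were taken from lists. Among 36 other replication genes, 10 rose in females and 6 in males, with medians of 0.15 and 0.14. Clspn, the checkpoint adaptor at forks, rose by 0.59 and 0.76, Ctps, a CTP synthase, by 0.38 and 0.60, and Cdc7, the kinase that fires origins, by 0.54 and 0.39. Of 10 genes of chromatin copying, 6 rose in females and 4 in males, led by Uhrf1, which carries methylation to new strands (0.86 and 1.06), then Asf1b (0.74 and 0.68), a histone chaperone, and the histone variant gene H2afx (0.40 and 0.44). Of 17 further genes of fork protection and repair, 3 rose in females and 4 in males. The checkpoint kinase Chek1 rose by 0.69 and 0.56 and the uracil glycosylase Ung by 0.64 and 0.49, while the nuclease Exo1 rose in males by 0.56 and differed by 0.28 in females (adjusted p = 0.289). Leaving out single arrays lost the calls of Clspn (air replicate 2, SHS replicates 1 and 3) and Ctps (air replicates 1 to 3, SHS replicates 1 and 2) in females. In males it lost those of Cdc7 (air replicates 1 and 3, SHS replicates 2 and 3), Chek1 (air replicates 1 and 3, SHS replicates 1 to 3) and Exo1 (air replicates 1 and 3, SHS replicate 3).

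Of 23 further genes of G1 control, 5 rose in each sex. Ccna2, the cyclin of S phase and G2, rose by 1.12 ± 0.17 and 0.96 ± 0.17, and the repressor E2f8, itself an E2F target, by 0.70 and 0.55. Myc rose by 0.67 in females and differed by 0.39 in males (adjusted p = 0.0637). CDK inhibitors, which hold cells in G1, were called once in each sex among 7 genes: Cdkn1a was higher by 0.36 ± 0.09 in females (adjusted p = 0.0423) and Cdkn2d by 0.29 ± 0.07 in males (adjusted p = 0.0322). Both calls were lost without single arrays, Cdkn1a with an adjusted p of up to 0.127 (without air female replicate 3). Cdkn1b differed by -0.31 ± 0.15 in females and -0.41 ± 0.15 in males and Cdkn2c by -0.05 and 0.17, none called. Under alternatives Cdkn1b was called lower in males, with the 8 male arrays fitted alone (-0.41, adjusted p = 0.00811, limma) and with array weights (-0.43, adjusted p = 0.0401). Of the mitosis genes 22 of 23 rose in each sex, with medians of 1.01 and 0.88, including Birc5 (1.38 and 1.43), Ube2c (1.34 and 1.19) and Mki67 (1.30 and 0.97). No gene of these 6 lists was called lower in the fit of all arrays without weights. No test was made between lists.

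**Figure D5:**
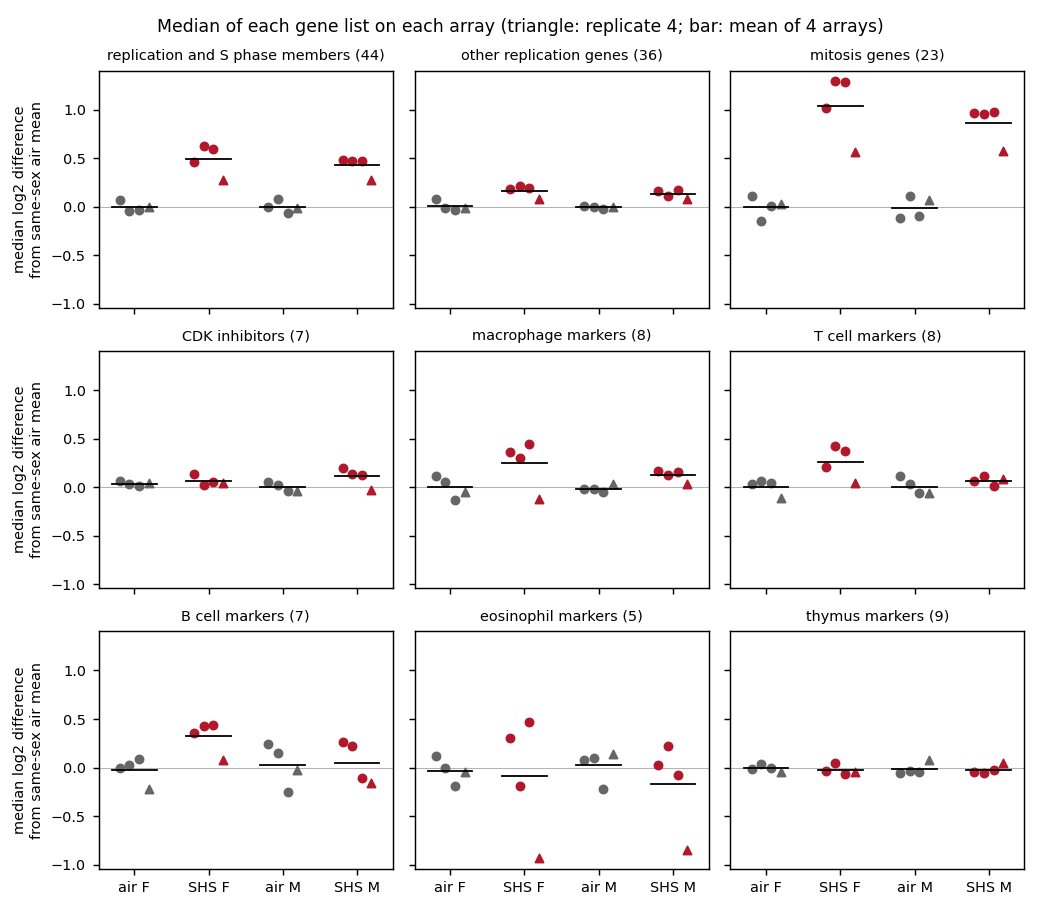
Median, over the genes of each list, of the log2 value minus the mean of the air arrays of the same sex, on each of the 16 arrays, with a bar for the mean of a group and triangles for replicate 4. All SHS arrays lie above all air arrays of their sex for the list of 44 genes and for the mitosis list, and replicate 4 is the lowest SHS array of each sex for these lists and for the eosinophil markers.

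Replicate 4 of the SHS mice stood apart in both sexes. The median over the 44 genes of the difference from the air mean was 0.46, 0.63, 0.59 and 0.28 on SHS female arrays 1 to 4 and 0.48, 0.47, 0.47 and 0.28 on SHS male arrays, against -0.06 to 0.08 on the 8 air arrays. Replicate 4 was the lowest SHS array for 37 of 44 genes in females and 33 in males. The same arrays had the lowest medians of 5 eosinophil markers, -0.93 in females (others -0.19 to 0.47) and -0.85 in males (others -0.08 to 0.22), and of the mitosis genes, 0.56 (others 1.02 to 1.29) and 0.57 (others 0.95 to 0.98). They had the highest endothelial median of their group, 0.18 (others -0.30 to -0.18) and 0.28 (others -0.05 to -0.01). Without both arrays 34 genes were called in females and 33 in males, with medians of 0.54 and 0.45, when 5.84% and 4.15% of all probe sets were called higher. Their cell makeup was not tested as a source of the lower replication values. The gains were Slbp in females and Cdt1, Rfc3, Rfc4, Rpa2, Dut and Ccne1 in males.

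Calls near the threshold depended on which arrays were in the fit, while the differences stayed close to those reported. When the 16 arrays were omitted singly, 26 of the 33 calls in females and 18 of the 27 in males held throughout. In females the call was lost without air replicate 1, 3 or 4 or SHS replicate 1, 2 or 3 for Pole, without air 2, 3 or 4 or SHS 1, 2 or 3 for Rfc3, and without air 1, 2 or 3 or SHS 1, 2 or 3 for Ccne1. It was lost without air 1, 3 or 4 or SHS 1 or 2 for Mcm2, air 2 or 4 or SHS 2 or 3 for Mcm10, air 3 or 4 or SHS 2 or 3 for Pcna, and air 4 or SHS 2 for Pold1. The highest adjusted p among these was 0.12, for Ccne1 without SHS female replicate 1. Where the call was lost, the difference was 0.40 to 0.50 for Pole, 0.33 to 0.39 for Rfc3, 0.35 to 0.45 for Ccne1, 0.30 to 0.38 for Mcm2, 0.38 to 0.44 for Mcm10, 0.34 to 0.37 for Pcna and 0.27 for Pold1.

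In males the calls of Prim2 and Rfc2, at adjusted p of 0.0499 and 0.0496, were lost without any of 13 and 12 arrays, of either sex. Their differences were then 0.25 to 0.32 and 0.20 to 0.26, against 0.29 and 0.25 with all arrays, and leaving out a female array left the male difference as it was. Male calls were lost without air replicate 2, 3 or 4 or SHS replicate 1, 2 or 3 for Mcm4, air 1, 3 or 4 or SHS 1, 2 or 3 for Mcm6, and air 3 or 4 or SHS 1, 2 or 3 for Pold1. They were lost without air 1 or 3 or SHS 1, 2 or 3 for Rfc5, air 1 or 3 or SHS 1 or 3 for Gins2, and SHS 3 for Pcna and Ccne2. The highest adjusted p was 0.162, for Rfc2 without SHS male replicate 1. Differences at these losses were 0.23 to 0.27 for Mcm4, 0.50 to 0.57 for Mcm6, 0.26 to 0.28 for Pold1, 0.39 to 0.41 for Rfc5, 0.39 to 0.42 for Gins2, 0.34 for Pcna and 0.51 for Ccne2. Conversely, Cdt1, Rfc4, Rpa2, Dut and Ccne1 gained a call in males without SHS female replicate 4, which enters the shared spread, and Cdt1, Rfc3, Rfc4 and Ccne1 without SHS male replicate 4. The count of calls ran from 26 (without SHS female replicate 2) to 34 in females and from 18 (without SHS male replicate 3) to 32 (without SHS female replicate 4) in males. Of all probe sets 1.31% were called higher in females without SHS female replicate 2. In males the shares were 1.55% without SHS male replicate 3 and 3.93% without SHS female replicate 4. On simulated data of the same size 78% of probe sets changed 1.5-fold were recovered in either sex and 20% and 24% of those changed 1.25-fold. A difference near 0.3 was thus often missed in the simulation with 4 mice per group. Far fewer probe sets were changed there than were called in the data, which makes the adjustment stricter. Recovery in the data may therefore be higher.

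Markers of other cells in the lung mostly stayed below the threshold. No marker was called among 9 of lung epithelium, 7 of fibroblasts, 5 of eosinophils, 8 of marrow granulocyte precursors, 5 of erythroid cells and 5 of germinal centres. Mean levels of the epithelial markers were 12.85 to 13.11 on air female arrays, 12.90 to 13.05 on SHS female arrays, 12.54 to 12.65 on air male arrays and 12.56 to 12.74 on SHS male arrays, and all 9 markers had means above 7.02. Called markers were Mrc1 of 8 macrophage markers (0.72 and 0.66), Fcer2a of 7 B cell markers (1.03 and 0.89), Cd8b1 of 8 T cell markers (0.40 in females), Irf4 of 6 plasma cell markers (0.81 in females), Cxcr2 of 5 neutrophil markers (0.59 in males), Ngfr of 5 airway basal markers (0.38 in males), Tek of 7 endothelial markers (-0.46 in females) and Cd1d1 of 9 thymus markers (-0.30 in males). Of these, the calls of Fcer2a, Irf4, Cd8b1, Ngfr, Tek, Cd1d1 and Cxcr2 were each lost without some single array.

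Lists of leukocyte markers were also higher on some SHS arrays. The median of the T cell markers was 0.21, 0.42, 0.37 and 0.04 on SHS female arrays 1 to 4, that of the B cell markers 0.36, 0.43, 0.44 and 0.08, and that of the macrophage markers 0.36, 0.30, 0.44 and -0.12. In SHS males these medians were 0.06, 0.11, 0.01 and 0.08 for T cells, 0.26, 0.22, -0.11 and -0.16 for B cells and 0.17, 0.13, 0.16 and 0.03 for macrophages. Mean levels over the T cell list ran from 7.96 to 8.08 in air females, 8.11 to 8.43 in SHS females, 7.67 to 7.88 in air males and 7.73 to 7.87 in SHS males. Macrophage levels ran from 9.66 to 9.86, 9.78 to 10.31, 9.73 to 9.79 and 9.79 to 9.94 in the same order, and B cell levels from 8.16 to 8.51, 8.43 to 8.96, 7.88 to 8.32 and 8.01 to 8.56. The 5 neutrophil markers had medians of 0.31, -0.09, 0.09 and 0.64 on SHS female arrays 1 to 4 (air females -0.20 to 0.38) and 0.46, 0.46, 0.25 and 0.44 on SHS male arrays (air males -0.20 to 0.19), so the male groups did not overlap. All 5 differences were above 0 in both sexes, with medians of 0.27 and 0.38, and mean levels ran from 8.75 to 9.27 in air females, 8.85 to 9.65 in SHS females, 8.78 to 9.20 in air males and 9.29 to 9.47 in SHS males. The part of these cells in the replication result was not tested. Of the 9 thymus markers 8, and of the 8 marrow precursor markers 7, had means below 7.02. The thymus list had medians between -0.07 and 0.05 on all SHS arrays, and a part of thymus tissue in the replication result was not tested.

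RNA quality and array identity were checked within each sex. The 3' minus 5' log2 signal of the control gene Gapdh was -0.48 to -0.41 in air females and -0.52 to -0.39 in SHS females, and 0.25 to 0.36 in air males and 0.14 to 0.52 in SHS males. For Actb it was 0.17 to 0.24 and 0.16 to 0.19 in females, and 1.13 to 1.19 and 1.0 to 1.24 in males, so smoke and air groups overlapped in each. Correlations between arrays of a sex ran from 0.990 to 0.998 over all probe sets, and no arrays held identical values.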

How the data were processed

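Per the labels' protocols, Trizol-extracted total RNA of 16 left lungs was turned into biotinylated cRNA for Affymetrix arrays. The log2 values deposited by the authors, 1 for each probe set of an array, share a scale between arrays. How probes were summarised and arrays normalized is not stated in the sources used here; limma is named in the submitters' processing notes, with neither version nor role. The log base was taken from the range of values, 2.58 to 15.2. Values were used as deposited.

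The 64 control probe sets among 45101 features were not tested. The array annotation, the one GEO gives for the platform, named 1 gene for 34945 of the 45037 probe sets tested, several for 932 and none for 9160. The 4 group means were fitted with limma 3.58.1 in R 4.3.3 (12 residual and 5.56 prior degrees of freedom), and the SHS effect in each sex and its difference between the sexes were tested two-sided, with Benjamini-Hochberg adjustment over 45037 probe sets. Errors are the model's standard errors. P-values measure the spread between these mice. The precision is limited by 4 arrays per group. Smoke was given before birth and the litters are not known. Mice of a group may therefore share a mother, which these p-values do not allow for.

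The genes and gene lists were chosen with earlier results of these data known, so no p-value is given for a list. Values on all arrays are given for the gene with the largest difference of each role in each sex and for genes called in neither sex; from each further list up to 3 called genes with the largest difference (2 for cell markers) are named, with Cdkn1a, Cdkn1b and Cdkn2c. The fit was tested on simulated data of 45037 probe sets, where 10 unchanged probe sets were called in females and 9 in males. Alternatives were quantile normalization, centring, a filter on low values, a replicate block, array weights, arrays of 1 sex alone, the mean of all probe sets, another threshold, a 1.5-fold minimum and arrays left out. Promoter windows came from RefSeq (GRCm38.p6), and plots were made in Python 3.11.15 with matplotlib 3.10.9.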

Additional observations from a re-analysis of the deposited data

Results flagged for a closer look

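An array was picked out where its gap to the nearest of its group exceeded Dixon's 95% limit for 4 samples. Chance alone picks out about 1 group in 20, and 88 groups were looked at. The median over the replication genes was 0.28 on SHS male replicate 4, against 0.47 to 0.48 on the other SHS male arrays. SHS female replicate 4 was low for Gins1 (6.41), Dtl (6.82) and Rrm2 (9.40), and SHS male replicate 4 for Rrm2 (9.63). Air female replicate 2 was low for Prim1 (7.99) and Rrm2 (8.28). E2f2 was high on SHS female replicate 1 (8.32) and Brca1 on air male replicate 4 (7.07). Why these arrays differ was not tested.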

How the results depend on the processing

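The number of genes called depended most on a minimum size: with a 1.5-fold minimum 16 genes remained called in females and 12 in males. Other settings kept the counts within 1.5 times those reported: quantile normalization gave 32 and 27, median centring 33 and 25, a filter on low values 32 and 31, array weights 34 and 35, the arrays of 1 sex alone 24 and 28, an adjusted p under 0.10 33 and 33, and the mean of all probe sets of a gene 34 and 31, where the medians were 0.40 and 0.37. The mean of all probe sets lost the calls of Mcm10 and Pola1 in females and of Mcm10, Prim2 and Rfc2 in males. With the replicate number as a block (replicate block) 33 and 29 genes were called. The share of all probe sets called higher also moved. It was 0.735% and 0.79% with the 1.5-fold minimum, 1.91% and 3.16% with quantile normalization and 2.24% and 2.88% with centring. The filter gave 5.4% and 6.16% of the probe sets kept, array weights 6.18% and 5.24%, and 1 sex alone 0.89% and 3.36%. An adjusted p under 0.10 gave 3.95% and 5.07%, the block 2.73% and 3.13%, and the mean of all probe sets 4.55% and 5.53% of genes. Same-numbered air and SHS arrays correlated in their deviations at -0.08 to 0.27 in females and 0.02 to 0.12 in males. The numbers were therefore not taken to pair air mice with SHS mice. Whether same-numbered females and males of 1 exposure were related was not tested. With single arrays left out the median difference ran from 0.43 to 0.54 in females and 0.39 to 0.45 in males. The difference between the sexes gave 0 calls under each of these alternatives that was run for it. The sign of 4 uncalled differences turned: with single arrays left out Orc1 in females ran from -0.0027 (without SHS female replicate 1) to 0.08, Fen1 in females from -0.03 (without air female replicate 1) to 0.35, Cd8b1 in males from -0.06 (without air male replicate 4; -0.01 without SHS male replicate 2) to 0.10, and Cdkn2c in females from -0.11 to 0.02 (without SHS female replicate 3), and with array weights Cdkn2c was at 0.01; the cause was not tested. Low signal limited Tyms, and 11 of the 44 genes had a mean below the median of all probe sets.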
